A study of Gallus gallus with 27 samples.

Results

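The anchorage-independent chicken line SCF2 was set against CEF2, the primary culture of the same line number, across all named genes of the normalized expression table. The comparison rests on 6 of the 27 libraries of the series, 3 of SCF2 and 3 of CEF2, chosen by the group in their labels. SCF2 cells were Gallus gallus embryonic fibroblasts that became immortal spontaneously after at least 120 population doublings, were passed through spheroids, and were adapted to single-cell growth in shaker flasks in medium with 0.1% Pluronic F-68, a surfactant. CEF2 cells were primary embryonic fibroblasts of the breed Broiler Ross 308, plated in flasks. SCF2, CEF2, SCF4 and CEF4 were grown at 39 °C in DMEM with 10% serum. The source label of SCF2 also gives Broiler Ross 308, but its breed field gives Israeli Baladi, and the line 4 suspension cells carry the opposite mismatch. SCF2 was 1 line, so the 3 libraries describe the spread between its replicates and not between lines. It differed from CEF2 in immortality, time in culture, loss of attachment, shaker culture and Pluronic at once. With its conflicting labels it may also differ in breed. These cannot be told apart in this comparison. Line 4 (suspension SCF4, primary CEF4) entered no mean of SCF2 or CEF2, but its libraries were in the same statistical fit. They thus shared in the error estimates and in the filter that set which genes were tested. Line 4 also served to test whether a change differed between lines, and its levels and changes are given beside those of SCF2. The attached immortal line CF2 was used only to give its levels side by side.

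Fibroblasts in primary culture normally grow attached to a surface, secrete extracellular matrix and stop dividing after a limited number of doublings. That arrest is held in large part by the p53 pathway and its target CDKN1A, and loss of attachment normally triggers a form of cell death. Immortal cells that grow in suspension have passed both barriers, and proliferating cells in general draw heavily on protein turnover, mitochondrial, sterol and one-carbon metabolism. Gene roles below are those known for genes of the same name, mostly from mammals.

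Sequencing depth was 14.7 to 21.2 M recovered reads in the SCF2 libraries and 22.5 to 28.7 M in the CEF2 libraries, and 11259 to 11821 genes had a read in SCF2 against 12897 to 13284 in CEF2. Values are normalized reads, that is reads divided by 1 factor per library, so they compare libraries and not genes of different length. Replicates were close: Pearson's r across genes of the log2 values was 0.989 to 0.994 within SCF2 and 0.988 to 0.993 within CEF2, against 0.803 to 0.812 between the groups.

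Differences were widespread, and the large ones were mostly losses. Of 13001 genes tested with limma, 3869 (29.8%) were higher and 4818 (37.1%) lower in SCF2 at a Benjamini-Hochberg adjusted p under 0.05, 66.8% in either direction. Among the 12127 with a gene symbol, 3625 were higher, 4576 lower and 3926 not called. A log2 change of 4 or more was reached by 74 symbols that rose and 1031 that fell, and one of 8 or more by 2 and 163. Changes of low genes depended on the scaling. The median log2 change of all genes was -0.08, and 0.22 after quantile normalization, which moved the share of calls that were higher to 59.5% against 44.5% (5362 higher and 3644 lower). Among the 2198 genes with a mean under 10 normalized reads the median was -1.02, and 0.69 after quantile normalization. Among the 8335 genes with a mean of 100 or more, 3171 (38.0%) were higher and 2541 (30.5%) lower. Families that hold many low genes are therefore given also for their members at 100 or more. That mean is over the 6 libraries, so a gene without an SCF2 read can reach it through CEF2 alone. MKX, SIX2 and KCNMB1, named below, are such genes. The cut does not remove them, so falls counted under it are no independent support. In these bulk libraries, fewer cells of a type and less RNA per cell cannot be told apart.

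**Figure D1:**
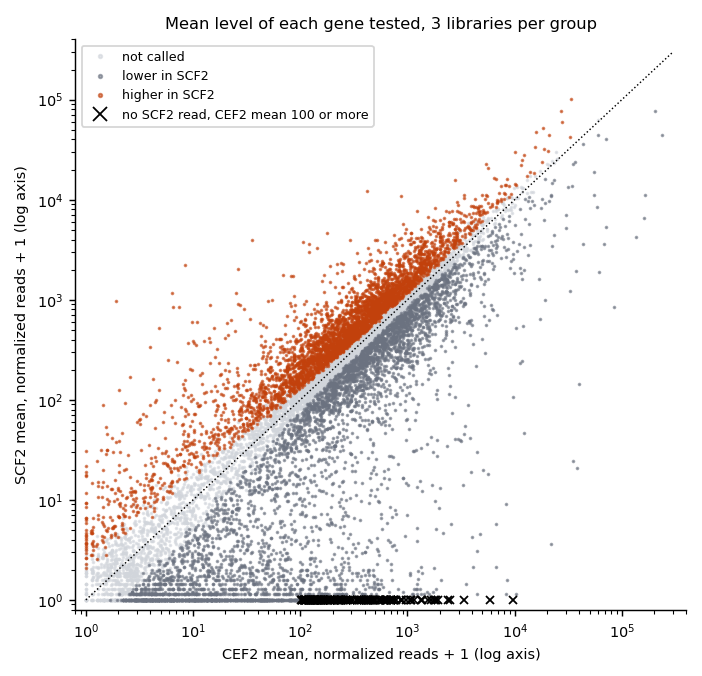
Mean normalized reads plus 1 of each gene tested, in SCF2 (vertical log axis) and in CEF2 (horizontal log axis), n = 3 libraries per group; the dotted line marks equal levels. Crosses along the bottom are the 163 genes with no read in any SCF2 library and 100 or more normalized reads in CEF2, and no gene sits in the matching place on the left edge.

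The largest rises outside the matrix, contractile and cell cycle lists were in genes with low levels in CEF2. KRTAP10-4, a symbol of the keratin-associated protein family, had 934, 895 and 1050 normalized reads in SCF2 and 0, 0.932 and 1.76 in CEF2 (log2 change 9.10 ± 0.40, SE). CBLN2, a secreted protein of the cerebellin family, had 2119, 2307 and 2245 in SCF2 and 5.42, 3.26 and 13.4 in CEF2 (8.25 ± 0.40). All SCF2 libraries lay far above all CEF2 libraries for both genes. SKAP1, an adaptor of integrin activation in T cells, had 1203, 1264 and 1019 in SCF2 and 2.92, 4.66 and 8.45 in CEF2 (7.61 ± 0.39). APCDD1, a membrane-bound Wnt inhibitor, was the most abundant of the 12 in SCF2 by normalized reads, with 4322, 4170 and 3443 against 37.1, 34.0 and 31.3 in CEF2 (6.82 ± 0.27). Further leading rises were MCTP1 (6.91), MAP7 (6.76, a microtubule-binding protein), PTPRE (6.41, a tyrosine phosphatase), TEKT5 (6.33), PPEF1 (6.29), MPZL2 (6.19, an adhesion molecule) and KIAA1644 (5.97).

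The largest falls ended at or near 0 reads in SCF2. FSCN1, the actin-bundling protein fascin, had 0.428, 0 and 0 normalized reads in SCF2, which is 1 read in all, and 4532, 4781 and 4119 in CEF2. PTGS2, the inducible prostaglandin synthase, had no SCF2 read and 1878, 1716 and 1879 normalized reads in CEF2. Against the floor of 3 reads over the group it was at least 3651-fold lower. SLC16A1, a lactate and pyruvate transporter, had 0.428, 0.872 and 0 in SCF2 and 3844, 3236 and 3556 in CEF2. PHGDH, the entry enzyme of serine synthesis, had 1.28, 2.18 and 0 in SCF2 and 4010, 4603 and 3533 in CEF2, a fall of 3506-fold. All of these were abundant in CEF2 and nearly or wholly absent from SCF2. TGFB2, a growth factor that drives matrix production, had 0, 0 and 0.635 in SCF2 and 1860, 1579 and 1748 in CEF2, and NCAM1, a neural cell adhesion molecule, had 1.28, 0.436 and 0 in SCF2 and 2073, 2032 and 2004 in CEF2. S100A11, a calcium-binding protein, had 0.428, 2.62 and 3.18 in SCF2 and 4784, 4712 and 3817 in CEF2. MOXD1, IGSF3, RRAD and C1QTNF4 had no SCF2 read and were at least 3730-fold, 3317-fold, 3131-fold and 2699-fold lower. The 12th was LSP1P1, with 0.856, 0.872 and 0 in SCF2 and 8331, 8420 and 8540 in CEF2. For all 24 leading genes the SCF2 and CEF2 libraries did not overlap, a condition of the rule that chose them and met by 72.2% of all genes tested.

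**Figure D2:**
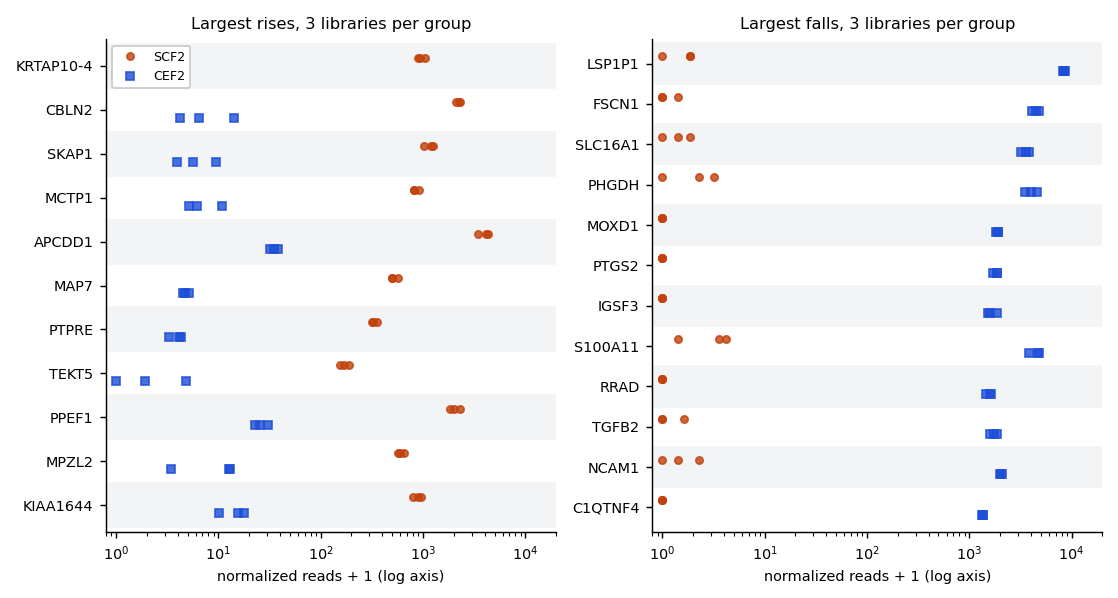
Normalized reads plus 1 (log axis) of 11 of the 12 largest rises (left panel) and the 12 largest falls (right panel), with the 3 SCF2 libraries as circles above the 3 CEF2 libraries as squares. Every rise shown lies at 153 or more in SCF2, and every leading fall at 3.18 or less in SCF2 against 1323 or more in CEF2.

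The attached line 2, CF2, stood on the same side of CEF2 for each of these genes. All 3 CF2 libraries were above all CEF2 libraries for the 12 leading rises, with CF2 means of 64.1 (MAP7) to 5585 (CBLN2) normalized reads, and below them for the 12 leading falls, with CF2 means of at most 2.79. The SCF2 and CF2 contrasts share the CEF2 libraries, so these values are given side by side and were not tested. In the authors' deposited table of this comparison 14 of the 24 leading genes were listed, all 14 with an adjusted p under 0.05. That table does not state the direction of its fold change, and all 14 had the opposite sign there. Across 5437 genes matched by symbol its fold changes correlated with those given here at -0.979, as for CEF2 minus SCF2. It describes the same 2 groups, so it is no independent support.

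Loss of expression to 0 was a 1-way pattern at this level. In SCF2, 163 symbols had no read while CEF2 averaged 100 or more normalized reads, and no symbol had no CEF2 read with 100 or more in SCF2. Of the 163, 25 were in the matrix, contractile or cell cycle lists and 138 outside them. In the attached line CF2, 158 of the 163 had a mean under 1 normalized read and 89 no read. In SCF4, 145 had a mean under 1, and 80 of these 145 reached 100 in its own primary culture CEF4. The 5 exceptions in CF2 were MKX, PLXND1, NR2C2, MEOX2 and FABP4, named after their values were seen. PLXND1, a semaphorin receptor, had no read in SCF2 and 473, 563 and 618 normalized reads in CEF2 (at least 1104-fold lower), with a mean of 242 in CF2 and 167 in SCF4. NR2C2, a nuclear receptor, had no read in SCF2 and 152, 168 and 125 in CEF2 (at least 296-fold lower), with a mean of 105 in CF2 and 120 in SCF4. Both genes were thus readable in the attached line and in the other suspension line, and their changes differed between lines 2 and 4.

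Cell type markers were read as lists, first for the labelled cell type. Of 21 fibroblast markers tested, 3 rose, 10 fell and 8 were not called. The matrix proteoglycan gene DCN and the surface marker genes THY1 and DDR2 were among those not called. DCN had 17941, 16995 and 16806 normalized reads in SCF2 and 13897, 13488 and 14436 in CEF2 (log2 change 0.31 ± 0.14, adjusted p 0.067). THY1 had 13029, 11138 and 15367 in SCF2 and 11004, 13652 and 11218 in CEF2 (0.13 ± 0.13). PDGFRB, PRRX1 and TWIST2 rose, and FBLN1 had no SCF2 read. The summed level of the list fell to 134240 to 158380 in SCF2, against 681840 to 761460 in CEF2. Of this, COL1A1 alone had 55063, 39249 and 39665 in SCF2 and 256770, 253450 and 206520 in CEF2.

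Marker lists of other cell types that an embryonic culture could hold each had more members lower than higher. Of all genes tested, 37.1% were lower and 29.8% higher. Members of any of these lists can pass the filter through primary culture libraries alone, so their counts of falls are no support. Rows without an SCF2 read were 9 of 20 for cartilage and bone, 10 of 30 for neuron and glia and 9 of 22 for epithelium. Summed levels were higher in SCF2 for the neuron and glia list and the endothelial list, and overlapped for the adipocyte list. Of 23 skeletal muscle markers tested, 12 had no SCF2 read. MYOD1, a master regulator of muscle, had no SCF2 read and 369, 487 and 402 in CEF2, and MYOG had none in SCF2 and 285, 266 and 246 in CEF2. Their sums were 143 to 169 normalized reads in SCF2 and 16147 to 17849 in CEF2. All 23 were called lower, but members can pass the filter on low values through the CEF2 libraries alone, so that count is no support. With any 1 CEF2 library left out, 14 were called. Of the 23, 10 had a mean of 100 or more over the 6 libraries and were all lower. With such SCF2 sums, that mean is reached through CEF2, so this count is no support either. Of 20 cartilage and bone markers 16 fell and 2 rose, with sums of 580 to 675 in SCF2 and 15238 to 16792 in CEF2, and SOX9, ACAN and SPP1 had no SCF2 read. SPP1, osteopontin, had 3489, 3631 and 3051 normalized reads in CEF2. Of 15 smooth muscle and pericyte markers 11 fell and 3 rose, with sums of 13077 to 17776 in SCF2 and 153740 to 171990 in CEF2. ACTA2, smooth muscle actin, had 880, 918 and 719 in SCF2 and 82541, 87376 and 83871 in CEF2. Of 27 neuron and glia markers 21 fell and 3 rose, with sums of 6991 to 9444 in SCF2, most of it FABP7, and 4375 to 4767 in CEF2. Of 16 epithelial markers 12 fell and 1 rose, 6 and 5 after quantile normalization, and sums were 1184 to 1335 in SCF2 and 4866 to 5181 in CEF2. Of 21 adipocyte markers 16 fell and 3 rose, with overlapping sums of 15325 to 18975 in SCF2 and 16064 to 16537 in CEF2. Of 17 endothelial markers 8 fell and 4 rose, 5 and 9 after quantile normalization, and their sums of 3597 to 3682 in SCF2 and 1379 to 1519 in CEF2 did not overlap; FLT1 is the member described with the receptors. Of 15 macrophage and blood cell markers 9 fell and 3 rose, 5 and 6 after quantile normalization, with sums of 185 to 248 in SCF2 and 574 to 578 in CEF2. The part of these cell types in the falls of developmental genes described below was not tested.

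Gene families were then read by function, each against the background of 29.8% higher and 37.1% lower and an all-gene median of -0.08. Family lists were chosen with earlier results of these data known, so a family's count describes its members and is no independent test. The proteasome, the protease complex that degrades ubiquitin-tagged proteins, rose most uniformly of the families described. Its list of 39 genes tested holds subunits and also assembly factors and regulators, such as PSMG1, POMP and PSME3. Of the 39, 32 rose, 1 fell and 6 were not called, with a median log2 change of 0.91. PSMD3, a regulatory lid subunit, had 17615, 16039 and 13466 normalized reads in SCF2 and 2987, 2931 and 2445 in CEF2 (log2 change 2.49 ± 0.13, adjusted p 8.4e-10 by limma). PSMB3, a core subunit, had 4056, 4714 and 5189 in SCF2 and 1118, 1115 and 1010 in CEF2 (2.10 ± 0.15). PSMA6, of the core's outer ring, had 3583, 4290 and 4465 in SCF2 and 1191, 1005 and 1028 in CEF2 (1.93 ± 0.12). The exception was PSMD6, a lid subunit with 964, 1123 and 1080 in SCF2 and 1349, 1433 and 1470 in CEF2 (-0.43 ± 0.09).

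**Figure D3:**
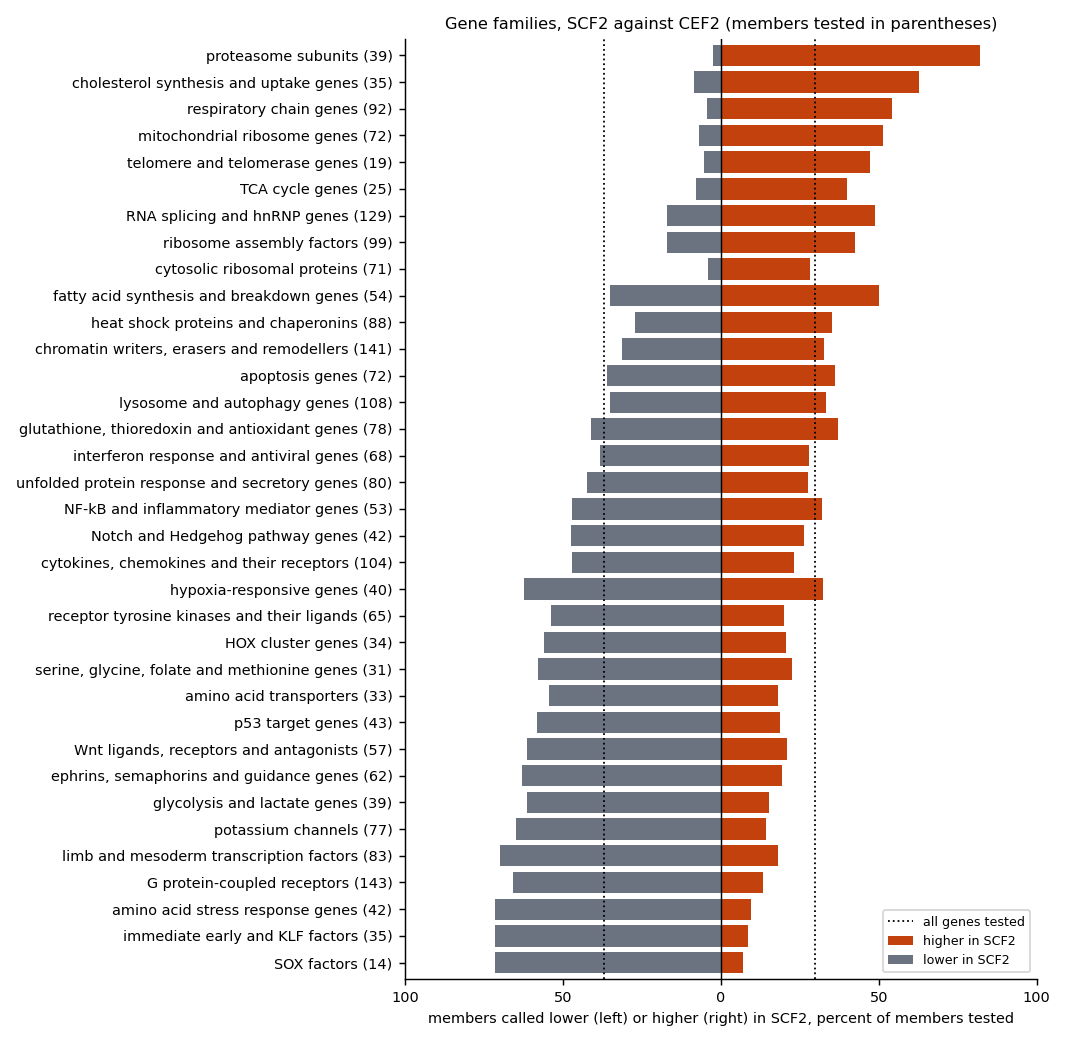
Percent of the tested members of each gene family called lower (grey bars, left) or higher (orange bars, right) in SCF2 against CEF2, ordered by the difference of the 2 shares, with the number tested in parentheses. Dotted lines mark the 37.1% lower and 29.8% higher of all genes tested. The list labelled proteasome subunits (32 of 39 higher), which also holds assembly factors and regulators, is at the top. SOX factors (10 of 14 lower, with 8 of the 14 without an SCF2 read) are at the bottom.

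Mitochondrial protein genes also rose more often than they fell. Of 92 respiratory chain genes tested, 50 rose, 4 fell and 38 were not called (median 0.51), and of 72 mitochondrial ribosome genes 37 rose and 5 fell (median 0.40). Of 25 TCA cycle genes 10 rose and 2 fell (median 0.16). Their 40% higher was near the 38.0% of genes with a mean of 100 or more. Without the third SCF2 library 11 respiratory chain genes were lower in place of 4. COX15, which makes the heme of cytochrome oxidase, had 425, 420 and 534 normalized reads in SCF2 and 147, 145 and 130 in CEF2 (1.69 ± 0.15). TFAM, the factor that packages and transcribes mitochondrial DNA, chosen by role, had 769, 894 and 1106 in SCF2 and 415, 462 and 458 in CEF2 (1.04 ± 0.12). GOT2, the mitochondrial aspartate aminotransferase, had 3183, 2871 and 1914 in SCF2 and 965, 1042 and 862 in CEF2 (1.44 ± 0.16). In each of these the SCF2 libraries were all above the CEF2 libraries, which the naming rule required of COX15 and GOT2. IDH3A, a subunit of the TCA cycle dehydrogenase, went the other way, with 746, 782 and 760 in SCF2 and 1269, 1253 and 1362 in CEF2 (-0.76 ± 0.08).

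Transcripts encoded by mitochondrial DNA rose in SCF2 as well. Of the 13 protein genes of the chicken mitochondrial genome 9 were in the table, of which 8 rose and none fell (median 1.31). COX3, a cytochrome oxidase subunit, had 105990, 88293 and 111730 normalized reads in SCF2 and 31616, 35744 and 33548 in CEF2 (1.60 ± 0.37), the largest gain in normalized reads of any gene called. The 9 genes together took 3.22 to 4.34% of normalized reads in SCF2 and 1.23 to 1.33% in CEF2. In line 4, 8 of the 9 were lower in suspension cells, with 0.409 to 1.26% of reads in SCF4 and 0.838 to 2.59% in CEF4. All 9 changes differed between the lines, against 39.2% of all genes tested. CF2 libraries had 2.87 to 3.27%. The other genes among the 10 largest gains in normalized reads were ATP6, ND1, CYTB and ND4 of the same genome, RPL4, PDIA3, HSP90AA1, SDC2 and ITGB1BP3. The 10 largest losses included ACTB, SERPINH1, VIM, NOV, GAPDH, TMSB4X, FTH1, TGFB3 and TUBA1A. NOV, a matricellular protein, had 1393, 1211 and 1075 in SCF2 and 34765, 32664 and 31005 in CEF2 (-4.75 ± 0.10). CCN3, a symbol also used for NOV, has a row of its own in the lists set aside, with no SCF2 read and a mean of 860 in CEF2.

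Ribosomal and RNA processing genes fell less often than all genes tested. Of 71 cytosolic ribosomal proteins 20 rose, 3 fell and 48 were not called (median 0.28). The 28.2% that rose was below the 29.8% of all genes tested and the 38.0% of genes with a mean of 100 or more. These counts rested on single libraries: 35 rose without the first SCF2 library, and 11 fell without the third. RPS21, of the small subunit, had 2329, 2726 and 7659 normalized reads in SCF2 and 1302, 1737 and 993 in CEF2, whereas RPL4 was even across replicates, with 47521, 48430 and 59651 in SCF2 and 19498, 18727 and 16508 in CEF2. RPL22L1, a variant large-subunit protein, fell (-2.02 ± 0.16). Of 99 ribosome assembly factors 42 rose (42.4%, near that 38.0%) and 17 fell, and nucleolin (NCL, 0.00 ± 0.15) and NPM1 (0.18 ± 0.15) were not called. Of 129 splicing and hnRNP genes 63 rose and 22 fell (median 0.33). SF3B5, a branch-site recognition subunit, had 1019, 1022 and 1620 in SCF2 and 312, 341 and 268 in CEF2 (1.96 ± 0.17). The falls included RNA-binding proteins known from muscle: RBM24 had no SCF2 read and 440, 472 and 447 normalized reads in CEF2, at least 906-fold lower, beside the muscle marker sums of 143 to 169 in SCF2 and 16147 to 17849 in CEF2.

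Protein folding genes moved in both directions. Of 88 heat shock and chaperonin genes tested, 31 rose (35.2%) and 24 fell (27.3%). These shares were near the 38.0% and 30.5% of genes with a mean of 100 or more. FKBP5, a co-chaperone of HSP90, had 3306, 3859 and 4571 normalized reads in SCF2 and 1012, 1030 and 1008 in CEF2 (1.93 ± 0.15). AHSA1, which activates HSP90, had 2576, 2908 and 3220 in SCF2 and 1045, 1026 and 1011 in CEF2 (1.49 ± 0.10), and HSP90AA1 itself had 30130, 32197 and 37697 in SCF2 and 15405, 15108 and 15760 in CEF2. SERPINH1, the collagen chaperone HSP47, had 9177, 9358 and 6737 in SCF2 and 58907, 59381 and 57358 in CEF2 (-2.81 ± 0.12). HSPB7, a small heat shock protein of muscle, had 3.00, 6.10 and 3.18 in SCF2 and 1893, 1970 and 1668 in CEF2, and HSPB8 had no SCF2 read. HSPA8, the constitutive HSP70, was not called (0.02 ± 0.08). Of 80 unfolded protein response and secretory genes 22 rose (27.5%) and 34 fell (42.5%). PDIA3, a disulfide isomerase for glycoproteins, had 30653, 32933 and 26793 in SCF2 and 10750, 9792 and 9378 in CEF2 (1.59 ± 0.11), whereas KDELR3, a retrieval receptor, had 508, 448 and 505 in SCF2 and 2217, 2425 and 2225 in CEF2 (-2.23 ± 0.17). XBP1, a transcription factor of the response chosen by role, was not called (-0.30 ± 0.15).

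Sterol genes rose more often than they fell. Of 35 cholesterol synthesis and uptake genes tested, 22 rose, 3 fell and 10 were not called (median 0.73). MVD, which makes isopentenyl diphosphate, had 1773, 1827 and 1594 normalized reads in SCF2 and 349, 366 and 240 in CEF2 (2.46 ± 0.24). SQLE, the epoxidase that commits squalene to sterols, had 7056, 7396 and 5516 in SCF2 and 1662, 1508 and 1524 in CEF2 (2.08 ± 0.12). Both enzymes were higher in every SCF2 library than in any CEF2 library, a condition of the rule that named them and met by 72.2% of all genes tested in either direction. HMGCS1, of an early step, was not called (0.20 ± 0.09). SREBF2, the transcription factor that activates the pathway, chosen by role, had 10271, 7852 and 8079 in SCF2 and 3832, 4119 and 3756 in CEF2 (1.15 ± 0.10). VLDLR, a lipoprotein receptor, was the largest fall, with 0.856, 0.436 and 0 in SCF2 and 267, 266 and 252 in CEF2.

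Fatty acid genes moved in both directions. Of 54 tested, 27 rose (50%) and 19 fell (35.2%), against 29.8% and 37.1% of all genes tested. ELOVL6, a chain-elongating enzyme, had 966, 1031 and 728 normalized reads in SCF2 and 170, 187 and 157 in CEF2 (2.39 ± 0.13). FABP7, a carrier known from glia, had 6740, 7312 and 9117 in SCF2 and 1279, 1374 and 1054 in CEF2 (2.64 ± 0.13). Its relatives went the other way: FABP4, the adipocyte carrier, had no SCF2 read and 917, 892 and 837 in CEF2 (at least 1765-fold lower), and FABP5 had 0.428, 0 and 0 in SCF2 and 373, 422 and 335 in CEF2. EHHADH, of peroxisomal breakdown, had no SCF2 read and 144, 133 and 135 in CEF2.

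Genes of sugar, serine and amino acid metabolism fell more often than they rose. Of 39 glycolysis and lactate genes 6 rose and 24 fell (median -0.55), and 12 rose and 18 fell after quantile normalization. Malic enzyme ME1, a source of NADPH, had 12.8, 9.15 and 14.6 normalized reads in SCF2 and 2024, 1891 and 2064 in CEF2, a fall of 163-fold (-7.26 ± 0.17), and its mitochondrial relative ME3 had 1.28, 0 and 0 in SCF2 and 264, 238 and 196 in CEF2. GAPDH, a core enzyme, had 41825, 42981 and 35794 in SCF2 and 75723, 72565 and 64276 in CEF2 (-0.82 ± 0.11). LDHA, lactate dehydrogenase, chosen by role, was at -0.28 ± 0.08 and turned to 0.23 after quantile normalization, so no direction is given for it. PGAM1 was not called (0.16 ± 0.13).

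The serine, glycine, folate and methionine list had 7 rises and 18 falls among 31 genes tested, and 7 and 13 among the 25 with a mean of 100 or more. Beside PHGDH, PSAT1, the next enzyme, had 338, 368 and 322 normalized reads in SCF2 and 1112, 966 and 1120 in CEF2 (-1.63 ± 0.10), and ALDH1L2, a mitochondrial folate enzyme, had 3.00, 4.80 and 0.635 in SCF2 and 450, 434 and 491 in CEF2. The 3 largest rises of the list were SHMT1, TYMS and AHCY. SHMT1, which moves a carbon from serine to folate, had 443, 440 and 302 in SCF2 and 91.3, 117 and 89.7 in CEF2 (1.97 ± 0.20). TYMS, which makes thymidylate, had 402, 441 and 506 in SCF2 and 164, 120 and 153 in CEF2 (1.63 ± 0.15), and AHCY, of the methyl cycle, had 3496, 3839 and 4184 in SCF2 and 1343, 1332 and 1336 in CEF2 (1.52 ± 0.09).

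Amino acid stress response genes, the set driven by ATF4 when amino acids are short, fell in 30 of 42 and rose in 4 (median -1.10), of which 1 to 4 rose when single libraries were left out. ATF4 itself, chosen by role, was not called, with 8096, 9385 and 8996 normalized reads in SCF2 and 9804, 10300 and 9990 in CEF2 (-0.19 ± 0.12). DDIT3, a stress transcription factor of the list, had 74.0, 70.2 and 68.6 in SCF2 and 672, 697 and 561 in CEF2 (-3.16 ± 0.19), and ASNS, asparagine synthetase, had 3054, 3152 and 2763 in SCF2 and 4517, 4282 and 4513 in CEF2 (-0.57 ± 0.12). AARS, a transfer RNA synthetase, rose, with 5867, 6095 and 5574 in SCF2 and 4191, 3986 and 3619 in CEF2 (0.57 ± 0.12). Of 33 amino acid transporters 6 rose and 18 fell, and 6 and 9 of the 18 with a mean of 100 or more.

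**Figure D4:**
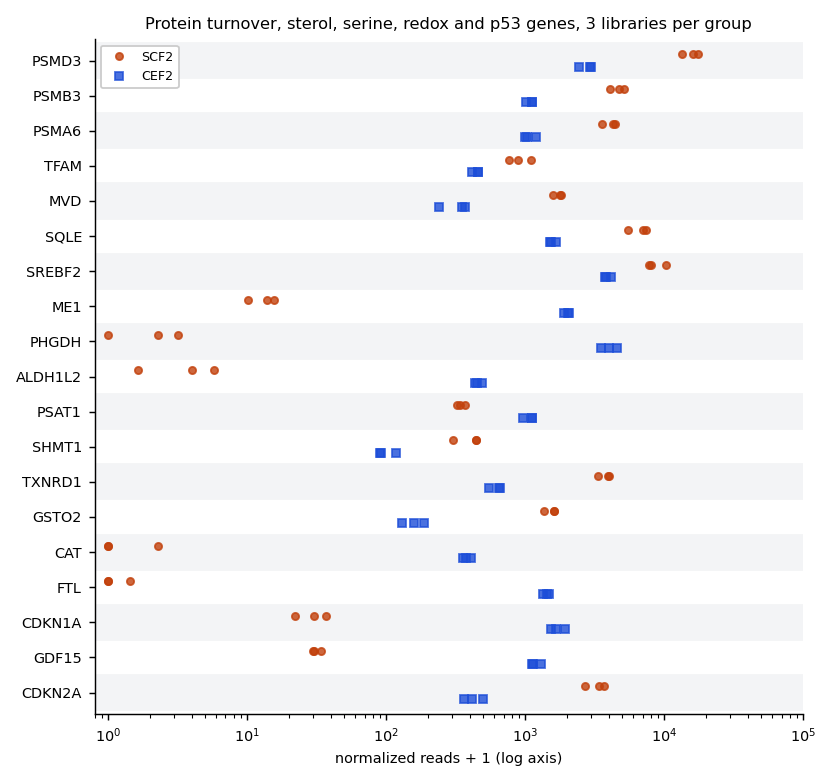
Normalized reads plus 1 (log axis) of 19 genes of protein turnover, mitochondria, sterol, serine, redox and p53 pathways, with the 3 SCF2 libraries as circles above the 3 CEF2 libraries as squares. The 19 were picked from genes named in the text, many under a rule that required no overlap, so that no group overlaps here is no result. Of all genes tested, 72.2% had no overlap. PHGDH, CAT and FTL are at or near 0 reads in SCF2, while TXNRD1, GSTO2 and CDKN2A lie above CEF2.

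Antioxidant genes moved in both directions. Of 78 glutathione, thioredoxin and antioxidant genes tested, 29 rose (37.2%) and 32 fell (41.0%). All genes tested were at 29.8% and 37.1%, so these counts were not far from the background. TXNRD1, the cytosolic thioredoxin reductase, had 3932, 4013 and 3320 normalized reads in SCF2 and 553, 653 and 656 in CEF2 (2.59 ± 0.10), and GSTO2, a glutathione transferase, had 1375, 1616 and 1624 in SCF2 and 187, 157 and 128 in CEF2 (3.29 ± 0.15). CAT, catalase, was down to 2 reads over the group, with 0, 0 and 1.27 in SCF2 and 408, 359 and 377 in CEF2. FTL, a ferritin subunit that stores iron, had 0.428, 0 and 0 in SCF2 and 1339, 1474 and 1445 in CEF2, and FTH1, the other ferritin subunit, had 13307, 13690 and 12768 in SCF2 and 34784, 32735 and 27280 in CEF2 (-1.25 ± 0.16). GPX4, which clears lipid peroxides, chosen by role, also fell, with 544, 647 and 926 in SCF2 and 2032, 2424 and 1787 in CEF2 (-1.58 ± 0.18). NFE2L2, the transcription factor of many of these genes, chosen by role, was not called (0.06 ± 0.11).

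Hypoxia-responsive genes fell in 25 of 40 and rose in 13. LOX, the collagen crosslinking enzyme, had no SCF2 read and 4964, 6522 and 6248 normalized reads in CEF2, at least 11830-fold lower. PLOD2, a collagen hydroxylase, had 632, 650 and 643 in SCF2 and 16741, 16924 and 18084 in CEF2 (-4.75 ± 0.09). ADM, the vasoactive peptide adrenomedullin, rose, with 1403, 1359 and 1236 in SCF2 and 181, 233 and 220 in CEF2 (2.66 ± 0.14). HIF1A fell to 3690, 3508 and 3174 in SCF2, against 5050, 5160 and 5759 in CEF2 (-0.62 ± 0.10). VHL, which targets HIF1A for degradation, fell to 440, 410 and 480 in SCF2, against 1439, 1554 and 1372 in CEF2 (-1.71 ± 0.12), and both were chosen by role. Of 108 lysosome and autophagy genes 36 rose (33.3%) and 38 fell (35.2%), near the 29.8% and 37.1% of all genes tested. SQSTM1, an autophagy receptor, had 6395, 6268 and 4578 in SCF2 and 895, 999 and 841 in CEF2 (2.64 ± 0.13), while CTSA, a lysosomal protease, had 35.1, 38.4 and 26.0 in SCF2 and 2214, 2545 and 2238 in CEF2 (-6.11 ± 0.14).

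Among developmental transcription factors falls outnumbered rises, and a few members rose by a wide margin. Of 83 limb and mesoderm factors tested, 58 fell and 15 rose, and 27 had no SCF2 read. Their median was -2.04, or -2.42 with genes without a read at their bound. Among the 39 with a mean of 100 or more, 21 fell and 13 rose. TWIST2, a mesenchymal factor, had 4837, 3790 and 5423 normalized reads in SCF2 and 173, 180 and 171 in CEF2 (4.72 ± 0.28). OSR2, known from limb joints and palate, had 2004, 1719 and 1602 in SCF2 and 55.0, 79.7 and 68.6 in CEF2 (4.70 ± 0.16), and IRX1 had 539, 510 and 744 in SCF2 and 13.3, 11.7 and 4.93 in CEF2 (5.85 ± 0.30). All 3 were far above every CEF2 library in every SCF2 library, and no overlap was a condition of the rule that named them. MKX, a tendon factor, and SIX2, a factor of tendon precursors, had no SCF2 read and were at least 1388-fold and 824-fold lower. Of 14 SOX factors 10 fell and 1 rose, or 8 and 3 after quantile normalization. Only 4 had a mean of 100 or more, of which 3 fell and 0 rose. No SCF2 read was found for 8 of the 14, among them SOX4, SOX9 and SOX10. Such members, here and in the limb and mesoderm list, pass the filter through other libraries alone, so neither count of falls is support. SOX4 had 357, 626 and 438 normalized reads in CEF2.

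HOX genes, which record the position of a cell along the body axis, moved in both directions. Of 34 tested, 19 fell and 7 rose (12 and 12 after quantile normalization), but only 9 had a mean of 100 or more, of which 5 rose and 2 fell. HOXC10, of the hindlimb and lumbar level, had 474, 470 and 623 normalized reads in SCF2 and 84.2, 102 and 95.7 in CEF2 (2.46 ± 0.22). HOXB3, of the neck level, had 322, 283 and 368 in SCF2 and 83.8, 91.4 and 82.3 in CEF2 (1.90 ± 0.49). HOXD8 had 0.856, 2.62 and 0 in SCF2 and 119, 158 and 145 in CEF2, a fall of 122-fold, and HOXA7 was not called (0.02 ± 0.14). Immediate early and KLF factors, which cells switch on within minutes of a stimulus, fell in 25 of 35 and rose in 3. NR4A3, an orphan nuclear receptor, had 5.14, 6.10 and 6.35 in SCF2 and 213, 286 and 255 in CEF2 (-5.19 ± 0.38), and MYCN had 8.13, 9.15 and 1.27 in SCF2 and 161, 213 and 159 in CEF2. KLF7 rose, with 299, 228 and 399 in SCF2 and 63.8, 82.0 and 65.1 in CEF2 (2.09 ± 0.34). JUN (-0.13 ± 0.10) was not called, nor was MYC (0.05 ± 0.10), chosen by role.

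Signalling families had more members lower than higher over all members tested, but some lists turned among members with a mean of 100 or more. There the Notch and Hedgehog list had 9 higher and 8 lower. The list of FGF ligands, receptors and ERK feedback had 11 higher and 9 lower, and the tyrosine phosphatases 9 and 8. Of 57 Wnt ligands, receptors and antagonists 12 rose and 35 fell (8 and 17 of the 30 at 100 or more). AXIN2, a feedback target of Wnt signalling, had 865, 731 and 975 normalized reads in SCF2 and 82.2, 96.5 and 65.8 in CEF2 (3.39 ± 0.22), and the ligand WNT6 had 114, 124 and 126 in SCF2 and 15.0, 12.1 and 14.4 in CEF2 (3.05 ± 0.31). RSPO3, a secreted enhancer of Wnt signalling, had no SCF2 read and 453, 408 and 439 in CEF2 (at least 867-fold lower), and the antagonist DKK3 had 1.28, 0 and 0 in SCF2 and 557, 551 and 488 in CEF2. CTNNB1, beta-catenin, chosen by role, had 4384, 4361 and 3649 in SCF2 and 7700, 7264 and 7172 in CEF2 (-0.84 ± 0.09).

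Of 42 Notch and Hedgehog genes 11 rose and 20 fell, and 18 rose and 15 fell after quantile normalization. GLI1, a transcription factor and target of Hedgehog signalling, had 158, 122 and 96.5 normalized reads in SCF2 and between 2.11 and 5.00 in CEF2 (4.75 ± 0.34). The GLI1 change was of opposite sign in line 4 (-1.58), and its mean in the attached line CF2 was 7.01. The Notch targets HEY1 and HEY2 went opposite ways. HEY1 had 402, 377 and 373 in SCF2 and 130, 141 and 120 in CEF2 (1.55 ± 0.16), and HEY2 had 3.00, 0.872 and 0 in SCF2 and 601, 794 and 714 in CEF2 (-8.48 ± 0.41). JAG2, a Notch ligand, had no SCF2 read and 148, 127 and 157 in CEF2. GPC1, a heparan sulphate proteoglycan, had 12.8, 6.10 and 6.99 in SCF2 and 1837, 1830 and 1776 in CEF2 (-7.62 ± 0.23).

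Of 65 receptor tyrosine kinases and ligands 13 rose and 35 fell (24 and 31 after quantile normalization). KIT, the stem cell factor receptor, had 359, 361 and 401 normalized reads in SCF2 and 20.9, 14.5 and 4.57 in CEF2 (4.92 ± 0.41). FLT1, a VEGF receptor, had 1702, 1828 and 1627 in SCF2 and 84.7, 83.0 and 85.2 in CEF2 (4.33 ± 0.17). GAS6, the ligand of the TAM receptors, was 1 read over the group in SCF2 and 1285, 1172 and 1201 normalized reads in CEF2, and NGFR, a neurotrophin receptor counted with the family, had no SCF2 read and 479, 606 and 571 in CEF2. Of 62 ephrins, semaphorins and guidance genes 12 rose and 39 fell (7 and 20 of the 32 at 100 or more). NTN3, a netrin, had 1346, 864 and 1284 in SCF2 and 29.2, 29.8 and 14.1 in CEF2 (5.57 ± 0.29). EPHA3, an ephrin receptor, had no SCF2 read and 829, 978 and 1107 in CEF2, at least 1944-fold lower.

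Of 143 G protein-coupled receptors 19 rose and 94 fell, and of 77 potassium channel genes 11 rose and 50 fell. Both lists were mostly of low genes: with a mean of 100 or more, 10 of 26 receptors rose and 12 fell, and 3 of 11 channel genes rose and 7 fell. LPAR4, a lysophosphatidic acid receptor, had no SCF2 read and 424, 427 and 451 normalized reads in CEF2 (at least 869-fold lower). ADRA1B, an adrenergic receptor, rose, with 437, 491 and 521 in SCF2 and 23.8, 18.2 and 28.9 in CEF2 (4.32 ± 0.24). KCNMB1, a smooth muscle potassium channel subunit, had no SCF2 read and 780, 716 and 680 in CEF2, beside smooth muscle marker sums of 13077 to 17776 in SCF2 and 153740 to 171990 in CEF2. KCNK5, a leak channel, rose (4.29 ± 0.26).

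Immune genes were mixed, and the balance turned with the scaling. Of 104 cytokines, chemokines and receptors 24 rose and 49 fell, against 41 and 34 after quantile normalization. Of 68 interferon response and antiviral genes 19 rose and 26 fell, against 27 and 17, and of 53 NF-kB and inflammatory mediator genes 17 rose and 25 fell, against 20 and 18. The named changes kept their direction. SOCS1, a feedback inhibitor of cytokine signalling, had 677, 640 and 623 normalized reads in SCF2 and 26.7, 50.3 and 22.2 in CEF2 (4.34 ± 0.23). NFKBIA, the inhibitor that holds NF-kB in the cytoplasm, had 1682, 1805 and 1803 in SCF2 and 368, 353 and 334 in CEF2 (2.32 ± 0.11). IL6 had no SCF2 read and 398, 404 and 312 in CEF2 (at least 743-fold lower), and TNFSF4, a ligand of the TNF family, had 0.428, 0 and 0 in SCF2 and 1128, 1122 and 1145 in CEF2. PTGS1, the constitutive partner of PTGS2, had 0.856, 0 and 0 in SCF2 and 508, 618 and 480 in CEF2, so neither prostaglandin synthase kept more than 2 reads. BF1, a chicken MHC class I gene that shares sequence with its relatives, had 22.3, 22.7 and 34.3 in SCF2 and 653, 797 and 645 in CEF2 (-4.69 ± 0.25), and reads of close copies could be split between them.

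Targets of p53 were mostly lower. Of 43 tested, 25 fell and 8 rose (median -0.65). CDKN1A, the kinase inhibitor that stops the cycle, had 29.1, 36.2 and 21.0 normalized reads in SCF2 and 1662, 1944 and 1529 in CEF2, a fall of 59.5-fold (-5.87 ± 0.21). GDF15, a secreted stress factor, had 33.0, 28.8 and 29.2 in SCF2 and 1124, 1298 and 1143 in CEF2 (-5.25 ± 0.16). MDM2, the ligase that degrades p53, chosen by role, had 184, 211 and 241 in SCF2 and 972, 1029 and 1259 in CEF2 (-2.35 ± 0.14). The arrest gene, the stress factor and the feedback ligase were thus all lower in every SCF2 library, which the naming rule required of CDKN1A and GDF15. PPM1D, a phosphatase that turns p53 off, rose, with 1103, 1073 and 1085 in SCF2 and 389, 399 and 405 in CEF2 (1.45 ± 0.10). CDKN2A, a tumour suppressor locus carried in the list, had 2709, 3700 and 3386 in SCF2 and 414, 499 and 360 in CEF2 (2.94 ± 0.18).

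Cell death genes rose in 26 and fell in 26 of 72 tested, 36.1% each way. This was near the 29.8% higher and 37.1% lower of all genes tested. CASP18, a caspase found in birds, had 373, 406 and 383 normalized reads in SCF2 and 15.0, 11.2 and 8.80 in CEF2 (4.97 ± 0.27), and the pore-forming GSDMA had 380, 384 and 323 in SCF2 and 63.8, 51.3 and 48.2 in CEF2 (2.72 ± 0.24). MCL1, a survival factor, was not called (-0.22 ± 0.16). Of 19 telomere and telomerase genes 9 rose and 1 fell, and the 1 was not called without some of the libraries. RTEL1, a telomere helicase, had 577, 601 and 514 in SCF2 and 260, 242 and 246 in CEF2 (1.17 ± 0.12). TERT, the catalytic subunit of telomerase, chosen by role, was close to the floor in both groups, with 4.28, 1.74 and 1.27 in SCF2 and 2.92, 1.86 and 3.52 in CEF2, so a difference was not detectable at this depth. Of 141 chromatin genes 46 rose (32.6%) and 44 fell (31.2%), also near those shares of all genes. SUV39H1, a histone methyltransferase of heterochromatin, had 503, 518 and 429 in SCF2 and 114, 139 and 93.2 in CEF2 (2.07 ± 0.18). DNMT3A, a de novo DNA methyltransferase, had 242, 191 and 303 in SCF2 and 1139, 1066 and 968 in CEF2 (-2.12 ± 0.17), and the maintenance enzyme DNMT1, chosen by role, had 1891, 1621 and 1631 in SCF2 and 1145, 1172 and 1049 in CEF2 (0.61 ± 0.13).

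When genes were grouped by the chromosome that RefSeq gives their symbol, a grouping added after values were seen, a few chromosomes moved nearly as a whole. Of 8335 genes with a mean of 100 or more, 7964 had a chromosome, and 31 chromosomes held at least 30 of them. Over the 7964, 37.9% were higher and 30.8% lower, with a median log2 change of 0.11. On chromosome 12, 162 of 186 genes (87.1%) were lower and 8 higher, with a median of -1.08, and -1.09 after quantile normalization. Relative to the CEF2 mean, the chromosome's median was -1.14, -1.15 and -1.17 in the SCF2 libraries and 0.01, 0.02 and -0.02 in the CEF2 libraries. In line 4 the chromosome 12 median was -0.17, and 142 of its 186 genes (76.3%) changed differently between the lines, against 39.7% over the 7964. Chromosome 23 was lower in both lines, with 98 of 126 genes lower and medians of -0.91 in line 2 and -0.98 in line 4. On the sex chromosome Z, 211 of 335 genes (63.0%) were lower, with medians of -0.57 in line 2 and -0.17 in line 4. The other 28 chromosomes had medians from -0.59 (chromosome 38) to 0.74 (chromosome 27, where 117 of 156 genes were higher). Chromosome 38 had 22 of its 32 genes lower (68.8%), a larger share than Z, and 1 higher. Its line 4 median was -0.66. Chromosome 6 was at 0.53 in line 2 and -0.04 in line 4.

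**Figure D5:**
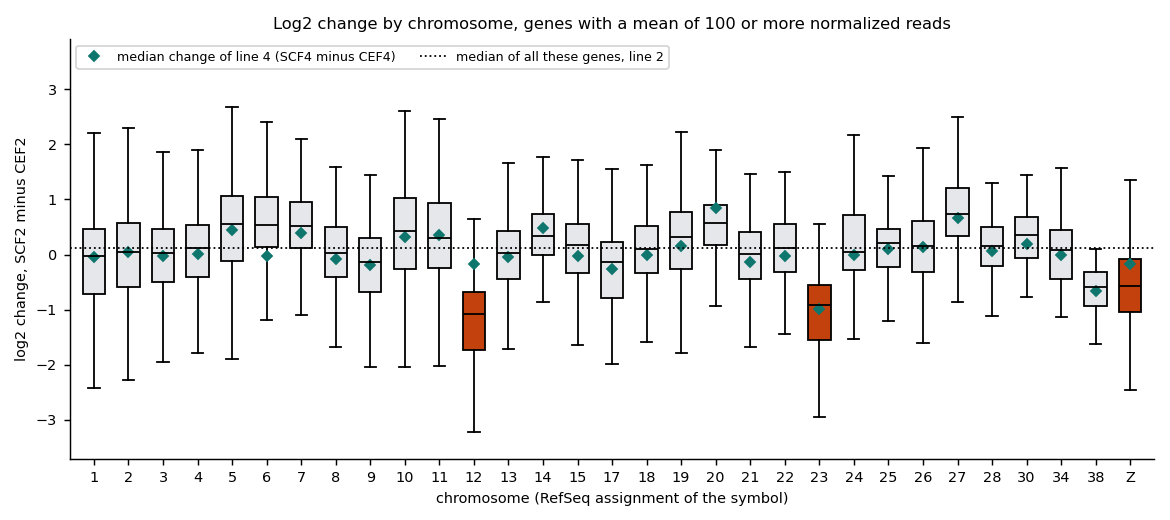
Log2 change, SCF2 minus CEF2, of genes with a mean of 100 or more normalized reads, by chromosome (31 with at least 30 such genes); boxes span the quartiles with the median as a line, and whiskers reach the last gene within 1.5 box lengths. The orange boxes of chromosomes 12, 23 and Z lie below the dotted all-gene median of 0.11, as does the uncoloured box of chromosome 38. The diamonds, the line 4 medians, lie near 0 for chromosomes 12 and Z but at -0.98 for chromosome 23.

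The chromosomes touch several genes named above. All 4 proteasome, respiratory chain and mitochondrial ribosome members on chromosome 12 (PSMD6, UQCRC1, NDUFAF3 and MRPS25) were lower, and they made up 4 of the 10 lower members among the 203 tested in these families. Another 4 of the 10 were on chromosome Z (NDUFS4, MRPS30, GFM2 and MRPS27). The other members on Z did not fall: ATP5I, NDUFAF2, COX7C, MRPS36 and MRPL50 were not called, and MRPL17 was higher (0.60). Of the 39 proteasome genes listed, 15 were on chromosomes 5, 20 and 27, and 14 of these 15 were higher, PSMD3, PSMB3 and PSMA6 among them. Over the genes counted on these chromosomes, medians were 0.55, 0.58 and 0.74, and 60%, 68% and 75% were higher. Of the other 24 proteasome genes, 18 were higher. These others include PSMD14 on chromosome 7, which had a similar median of 0.51 and 61% of genes higher. Whether the chromosomes account for the rises of the proteasome genes was not tested. VHL, PLXND1 and NR2C2 are also on chromosome 12. On the W chromosome, which hens carry, 20 of 23 rows tested were higher and 2 lower in SCF2, with a median of 1.41. Of all genes tested, 29.8% were higher. These rows include low ones. With the cut on mean reads used for the other chromosomes, 13 of 14 W genes were higher, against 37.9% over all chromosomes. Their median was 1.94 in line 2 and 0.71 in line 4, so W genes rose in both lines, and 10 of the 14 changed differently between the lines. HINTW, a W-linked gene present in many near-identical copies, had 6294, 7636 and 9047 normalized reads in SCF2 and 3042, 3072 and 2582 in CEF2 (1.39 ± 0.24). HNRNPKL, also W-linked, had 1967, 2155 and 2232 in SCF2 and 598, 541 and 704 in CEF2 (1.79 ± 0.11). Both were named after their values were seen, and both were read in all 6 libraries.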

How the data were processed

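RNA was sequenced as paired-end reads on an Illumina HiSeqX after RNeasy Micro extraction and NuGEN Trio library preparation, per the labels' protocols. Per the submitters' processing notes Bowtie2, RSEM, DESeq2 and galGal6 were used, but neither their roles nor their versions are stated there. The deposited normalized table carries TPM in its name, but its values behave as a signal, reads divided by 1 factor per library: every value up to 1000 reads came out whole within 0.01 reads in all 27 libraries. These recovered reads gave the depth. A deposited count table with Ensembl identifiers served as an alternative. The authors' deposited table of this comparison holds log2 fold changes and adjusted p-values.

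The test was limma 3.58.1 (trended, robust) on log2(normalized reads + 1) over 12 libraries of SCF2, CEF2, SCF4 and CEF4, for genes at 1 or more in at least 3 libraries, with Benjamini-Hochberg adjustment over all genes tested, and the difference between lines as a contrast of the same fit. Errors are standard errors, n = 3 libraries per group. A log2 change understates changes of low genes; genes with no SCF2 read are given as bounds against 3 reads over the group. Intervals of this kind cover counting error only. Alternatives used edgeR 4.0.16 and DESeq2 1.42.0 on recovered reads. The fit was tested on simulated data.

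Leading genes were the 12 largest rises and 12 largest falls among symbols outside the matrix, contractile and cell cycle lists that were called, did not overlap between groups and had 10 or more CPM in the higher group. Abundance genes were the 10 largest gains and losses. Each family shows members from its 3 largest rises and 3 largest falls, which also had to be called and without overlap at 10 or more CPM. Shown besides are members of its 2 most abundant uncalled genes and genes chosen by role. Members and lists were chosen with earlier results of these data known. Replicate numbers did not pair the samples: residuals of same-numbered libraries correlated at -0.01, -0.07 and -0.02. Of the table's rows, 17 carried a date in place of a symbol and were not named. Chromosomes come from RefSeq's GRCg7b gene table by symbol, and no coordinates were used. A few genes that the naming rules select are not reported here; counts include them.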

Additional observations from a re-analysis of the deposited data

Results flagged for a closer look

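Among the 24 leading genes, 13 changed by different amounts in line 2 and line 4, by the contrast of the limma fit (line 2 change minus line 4 change, log2), against 39.2% of all genes tested. All 24 were called in the same direction in line 4. Among the rises, the difference was -3.20 for CBLN2, -1.70 for SKAP1, -2.68 for APCDD1, 4.18 for MAP7, 3.36 for PPEF1 and -2.22 for MPZL2. Of the falls, it was -1.73 for LSP1P1, -1.52 for FSCN1, -2.14 for PTGS2, -3.29 for RRAD, -2.43 for NCAM1 and -1.48 for C1QTNF4. A fall to near 0 is limited by the level in the primary culture, so such differences do not measure a deeper loss in line 2. PTGS2 averaged 1824 normalized reads in CEF2 and 412 in CEF4, with 0 in SCF4. RRAD averaged 1565 in CEF2 and 177 in CEF4, with 0.115 in SCF4. C1QTNF4 averaged 1349 in CEF2 and 996 in CEF4, with 1.31 in SCF4, near the floor.

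Mitochondrially encoded genes among the largest gains differed by 2.76 for COX3, 2.87 for ATP6, 2.15 for ND1, 3.10 for CYTB and 2.58 for ND4. The difference was -8.39 for PLXND1 and -6.76 for NR2C2, without a read in SCF2 but read in SCF4, and 6.34 for GLI1, higher in SCF2 than CEF2 and lower in SCF4 than CEF4. PLXND1, NR2C2 and GLI1 were picked after their values were seen.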

How the results depend on the processing

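The counts of 3869 higher and 4818 lower genes stayed within 1.5 times under the other normalizations, filters, tools and pseudocount, apart from these settings. Requiring a log2 change beyond 1 left 816 higher and 2457 lower. Among genes with a mean of 100 or more normalized reads, an alternative chosen after seeing the data, 2541 were lower. Of the 24 leading genes, 13 changed differently between lines, against 8 by edgeR's quasi-likelihood test with TMM factors on recovered reads. Leaving out 1 library at a time gave 3515 to 3737 higher, 4349 to 4619 lower and 11 to 15 leading genes that differed between lines. Replicate numbers are shared but did not pair the libraries, and a replicate block gave 3714 higher, 4689 lower and 14 leading genes. With only SCF2 and CEF2 in the fit, 4033 of 12572 genes tested were higher and 4849 lower. Quantile normalization turned LDHA to 0.23 and TERT to 2.04. Depth limits genes near 0 reads in SCF2, whose log2 change depends on the pseudocount.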
